A study of Mus musculus with 10 samples.

Results

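The 6 genes described here encode the endocytic receptor complex of megalin and cubilin: Lrp2, Cubn, Amn, Dab2, Lrpap1 and Clcn5. They were chosen by name, and every probe set of the array whose annotated gene symbol was exactly one of these names was taken, which gave 18 probe sets of 45101 and 6 genes of 18193 that could be named. All 6 were measured, and none of the 18 probe sets reached the intensity floor of 16 on any array. Expression was measured on Affymetrix arrays in whole urogenital systems of mouse embryos at embryonic day 15.5. Each of the 10 arrays took RNA pooled from 1 to 2 urogenital systems, with 5 pools per genotype. Homozygous embryos carried the cneo allele of the Wnt ligand gene Wnt9b on both chromosomes. Control embryos carried 1 cneo and 1 normal allele by their genotype label, while their titles call them wild type, so the controls may share the allele in single copy. The effect of the cneo allele on the transcript is not described in the labels, no Cre or tissue restriction is named, and strain, sex and litter are not given. The design text of the series describes other material, kidney mesenchyme of Wnt9b+/- intercrosses at an earlier stage, and stage and tissue here follow the sample labels and the title. The comparison asks how mRNA levels of the urogenital system differ between these genotypes.

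Megalin, the product of Lrp2, is a very large receptor of the low density lipoprotein receptor family that sits on the apical membrane of proximal tubule cells and takes up filtered proteins, vitamin carriers and hormones. Cubilin, the product of Cubn, binds vitamin B12 with intrinsic factor, albumin and other ligands but has no membrane-spanning part. It reaches the cell surface only with amnionless, the product of Amn, and is taken up together with megalin. The remaining genes encode intracellular partners. Dab2 is a clathrin adaptor that binds the receptor tail. Lrpap1 (receptor-associated protein) is a chaperone that keeps family receptors free of ligand in the endoplasmic reticulum. Clcn5 is a chloride-proton exchanger that supports acidification of endosomes. In the embryo, megalin, cubilin and amnionless are also made in the visceral endoderm of the yolk sac, and Dab2 is made in macrophages and several mesenchymal cells.

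Lrp2 lies on chromosome 2 from 69424335 to 69586029 and Cubn on the same chromosome from 13276338 to 13491876 (GRCm38.p6). Amn lies on chromosome 12 from 111271096 to 111276426, Dab2 on chromosome 15 from 6299788 to 6440715, Lrpap1 on chromosome 5 from 35091490 to 35105699, and Clcn5 on chromosome X from 7153810 to 7319358. Since the Lrp2, Cubn and Amn signals moved together between the genotypes, as given below, the 250 bases before their annotated starts are shown, with those of Lrpap1 as a member whose signal did not move with them. The sequences are from RefSeq (GRCm38.p6), 5′ to 3′ on the strand of the gene. Capitals mark matches, on either strand, to an HNF4 site (CAAAGTCCA), the GC box (GGGCGG), the CCAAT box (CCAAT) and the TATA box (TATAAA). These letters were chosen with the sequences in view, and no matches overlapped in the 4 windows.
Lrp2, chr2:69586030-69586279, minus strand: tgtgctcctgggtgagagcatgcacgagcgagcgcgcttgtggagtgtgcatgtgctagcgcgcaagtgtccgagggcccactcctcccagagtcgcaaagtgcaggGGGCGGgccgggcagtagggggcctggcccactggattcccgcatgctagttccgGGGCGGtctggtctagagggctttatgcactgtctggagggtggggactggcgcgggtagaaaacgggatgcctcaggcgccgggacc
Cubn, chr2:13491877-13492126, minus strand: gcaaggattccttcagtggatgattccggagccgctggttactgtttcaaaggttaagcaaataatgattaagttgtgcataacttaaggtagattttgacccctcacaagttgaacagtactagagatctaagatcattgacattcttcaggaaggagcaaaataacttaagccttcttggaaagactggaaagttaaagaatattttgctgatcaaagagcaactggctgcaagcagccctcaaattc
Amn, chr12:111270846-111271095, plus strand: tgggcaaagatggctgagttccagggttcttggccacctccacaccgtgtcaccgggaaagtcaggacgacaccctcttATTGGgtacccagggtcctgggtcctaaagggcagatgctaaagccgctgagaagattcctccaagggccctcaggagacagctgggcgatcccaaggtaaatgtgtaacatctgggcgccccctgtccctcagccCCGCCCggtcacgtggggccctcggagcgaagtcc
Lrpap1, chr5:35105700-35105949, minus strand: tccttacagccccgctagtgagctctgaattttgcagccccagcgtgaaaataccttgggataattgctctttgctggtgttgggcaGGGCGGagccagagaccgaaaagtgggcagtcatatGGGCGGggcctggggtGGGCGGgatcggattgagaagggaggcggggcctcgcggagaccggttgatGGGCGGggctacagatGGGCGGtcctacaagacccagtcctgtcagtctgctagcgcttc

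The windows of Lrp2, Cubn and Amn did not resemble each other in composition. G and C made up 66.4% of the Lrp2 window, 61.2% of the Amn window and 39.6% of the Cubn window, against a median of 52.4% over 32851 promoter windows of this length. The Lrp2 window held 18 CpG pairs and 2 GC boxes, the Amn window 11 CpG pairs, 1 GC box and 1 CCAAT box, and the Cubn window 2 CpG pairs. The Lrpap1 window held 5 GC boxes. None of the searched letters was found in the Cubn window. Over all windows the HNF4 letters were found in 0.384%, the GC box in 32.7%, the CCAAT box in 33.8% and the TATA box in 12.4%. Neither the HNF4 letters nor the TATA box was found in these 4 windows. Dab2 and Clcn5, whose signals also did not move with Lrp2, have 2 windows each, which are not shown. None of the searched letters was found in the Dab2 windows. For Clcn5 a GC box was found in window 1 and a TATA box in window 2. A match is a description of the letters and no evidence of a bound factor.

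Across the genotypes, the receptor genes Lrp2, Cubn and Amn were lower in homozygous pools, while the homozygous pools of Dab2, Lrpap1 and Clcn5 overlapped the control pools. Each gene was read from its brightest probe set, and values under 16 were raised to 16 before log2 was taken. By limma over all 18193 genes, with Benjamini-Hochberg adjusted p under 0.05, 3 of the 6 genes passed, all lower. Among all genes 0.967% passed, 0.429% lower and 0.539% higher. In 3 of the 6 genes every homozygous pool lay below every control pool, against 2.10% of all genes, or 4.71% of all genes without overlap in either direction. The genes were chosen with earlier results of these data known, so these counts are descriptions. In whole tissue, fewer tubule cells and less RNA per cell cannot be told apart.

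**Figure D1:**
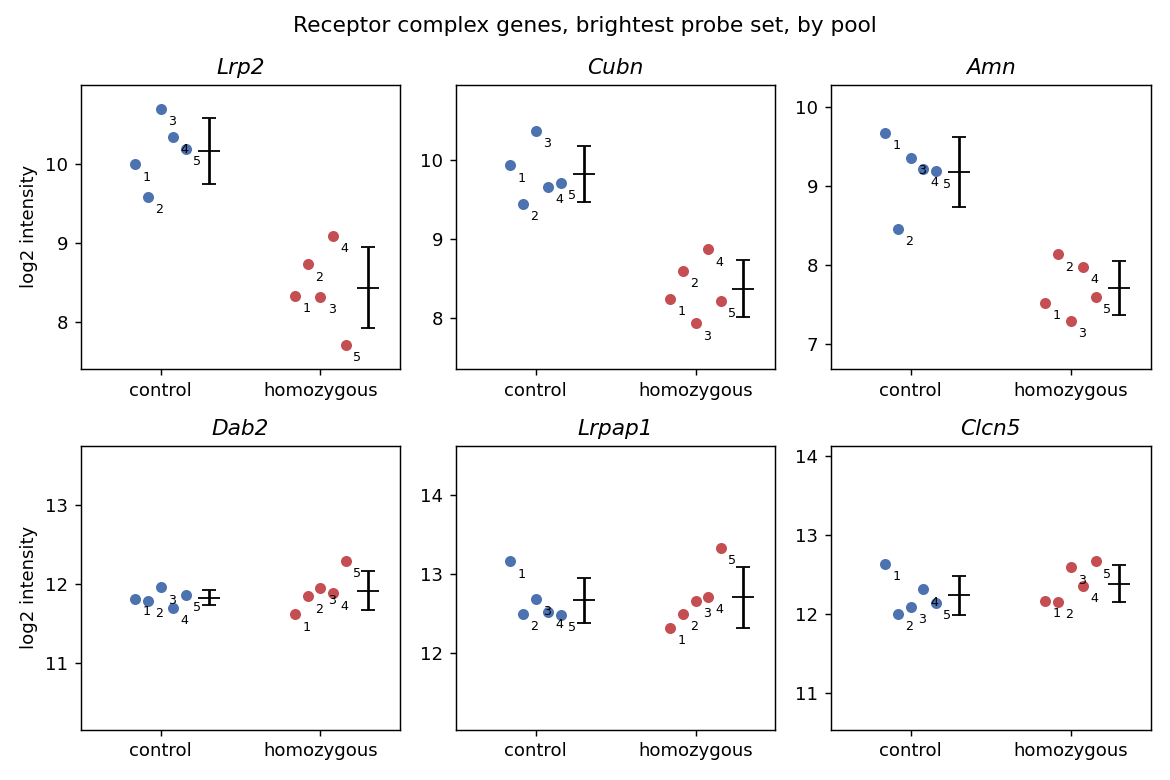
Log2 intensity of the brightest probe set of each gene (y axes, each spanning the same number of log2 units) in the control and homozygous pools (x axes); points are pools labelled by number, and the bar is the mean with its SD (n = 5). Homozygous pools of Lrp2, Cubn and Amn lie below all control pools, while those of Dab2, Lrpap1 and Clcn5 overlap the controls.

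Lrp2 had intensities of 319.75, 423.44, 317.33, 545.18 and 208.74 in homozygous pools 1 to 5. In control pools 1 to 5 the same probe set read 1019.3, 763.15, 1656.24, 1298.6 and 1170.15. No homozygous pool reached the lowest control, pool 2, and the homozygous pools stood at 18.2% to 47.7% of the control mean. Lrp2 fell by 1.73 on the log2 scale (SE 0.28, 95% interval -2.37 to -1.09; limma adjusted p = 0.039), the control mean being 10.16 ± 0.41 and the homozygous mean 8.43 ± 0.52 (SD, n = 5 each). This is a 3.32-fold decrease. With the mean of all 3 probe sets in place of the brightest, the log2 difference was -1.07 (limma adjusted p = 0.0325).

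Cubn read 301.37, 387.41, 243.75, 466.58 and 297.64 in homozygous pools 1 to 5 by its brighter probe set. Its control pools read 976.17, 697.73, 1325.39, 808.41 and 835.62. As for Lrp2, control pool 2 was the lowest control and control pool 3 the highest, and homozygous pool 4 was the highest of its group. Cubn fell by 1.45 (SE 0.22, 95% interval -1.95 to -0.96; limma adjusted p = 0.0364), a 2.74-fold decrease from 9.82 ± 0.35 to 8.37 ± 0.37 (SD, n = 5 each).

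Amn, which has a single probe set, read 184.29, 281.54, 157.19, 252.68 and 193.34 in homozygous pools 1 to 5. Control pools 1 to 5 read 817.13, 351.97, 657.92, 594.68 and 584.01. Control pool 2 stood apart from the other controls on the low side, nearest to homozygous pools 2 and 4, and the groups did not overlap. Amn fell by 1.47 (SE 0.24, 95% interval -2.03 to -0.92; limma adjusted p = 0.0397), a 2.78-fold decrease from 9.18 ± 0.45 to 7.71 ± 0.34 (SD, n = 5 each).

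The intracellular partners gave small differences with intervals on both sides of 0. Dab2 read 3127.7, 3668.99, 3942.39, 3760.2 and 5005.05 in homozygous pools 1 to 5 and 3583.33, 3530.58, 3971.28, 3321.98 and 3702.66 in control pools 1 to 5. Homozygous pool 5 was above all controls and homozygous pool 1 below them. The log2 difference was 0.09 (SE 0.11, 95% interval -0.16 to 0.35; limma adjusted p = 0.734), and it was -0.0049 without the arrays of homozygous pool 5 and control pool 1, which had a high actin ratio as described below.

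Lrpap1 read 5125.88, 5784.25, 6496.45, 6689.13 and 10322.2 in homozygous pools 1 to 5. Its control pools read 9157.72, 5785.09, 6588.49, 5882.53 and 5717.88. The highest pool of each genotype, homozygous pool 5 and control pool 1, stood well above the other 4 of its group. The log2 difference was 0.036 (SE 0.20, 95% interval -0.42 to 0.50; limma adjusted p = 0.978), and its sign turned to -0.023 under quantile normalization and -0.014 with all arrays set to 1 median.

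Clcn5 read 4580.62, 4543.96, 6164.93, 5223.54 and 6489.95 in homozygous pools 1 to 5 and 6337.96, 4093.81, 4341.73, 5081.04 and 4510.47 in control pools 1 to 5. The groups overlapped over most of their range. The log2 difference was 0.15 (SE 0.15, 95% interval -0.18 to 0.48; limma adjusted p = 0.669). The x in the name of this probe set, 1420295_x_at, marks probes that may also match other transcripts. The brighter of the Clcn5 probe sets without this mark, 1429400_at, differed by 0.25 (SE 0.16). The brightest Lrp2 and Cubn probe sets, 1427133_s_at and 1452270_s_at, carry another mark, s. Matches of their probes to other transcripts were not examined.

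Pools also differed in sex-linked transcripts, and Clcn5 is X-linked. Xist, the RNA of the inactive X chromosome, had a log2 level between 13.75 and 14.27 in 3 homozygous pools (3, 4 and 5), and no other pool exceeded 6.07. Within the homozygous group, Clcn5 was at 12.35 to 12.66 in the 3 pools of high Xist and at 12.15 to 12.16 in the other 2. Dab2 and Lrpap1, which are not X-linked, were ordered the same way, at 11.88 to 12.29 against 11.61 to 11.84 for Dab2 and 12.67 to 13.33 against 12.32 to 12.50 for Lrpap1. Lrp2, Cubn and Amn were not, since their pools of low Xist lay inside the range of the pools of high Xist or partly above it. Without the 3 pools of high Xist the log2 differences of Clcn5, Dab2 and Lrpap1 were -0.077, -0.094 and -0.26, and those of Lrp2, Cubn and Amn were -1.64, -1.41 and -1.35. The part of Xist-linked differences in these values was not tested further.

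The 3 calls depended on which pools were included. None of the 6 genes passed without homozygous pool 1, 3 or 5 or without control pool 1, 3, 4 or 5, 2 passed without homozygous pool 4, and 3 passed without homozygous pool 2 or control pool 2. The log2 differences moved less: leaving out each pool in turn gave -1.89 to -1.55 for Lrp2, -1.58 to -1.32 for Cubn and -1.65 to -1.35 for Amn. Titles of homozygous pools 1 to 4 end in CHP and no control title does. Among the arrays without this ending the homozygous group is pool 5 alone, which stood below the control mean by 2.45 for Lrp2, 1.61 for Cubn and 1.59 for Amn (log2 differences of -2.45, -1.61 and -1.59). A single pool gives no test of the title ending, and in that pool the Lrp2 probe sets disagreed, as given below.

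The 18 probe sets were then compared with each other in a fit over all 45037 probe sets that were not Affymetrix controls. Of these 0.231% passed in either direction and 0.120% were lower and passed, and 1 of the 18 passed: the brighter Cubn probe set, 1452270_s_at (limma adjusted p = 0.0471). In this larger family the brightest Lrp2 probe set, 1427133_s_at, and the Amn probe set, 1417920_at, did not pass, with limma adjusted p of 0.0575 and 0.0578. The groups did not overlap in 3 of the 18 probe sets, against 3.29% of all probe sets, and these 3 were the same ones. All 6 probe sets of Lrp2, Cubn and Amn had a negative difference, from -2.12 to -0.33. The 12 probe sets of Dab2, Lrpap1 and Clcn5 ran from -0.34 to 0.25 and none passed.

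**Figure D2:**
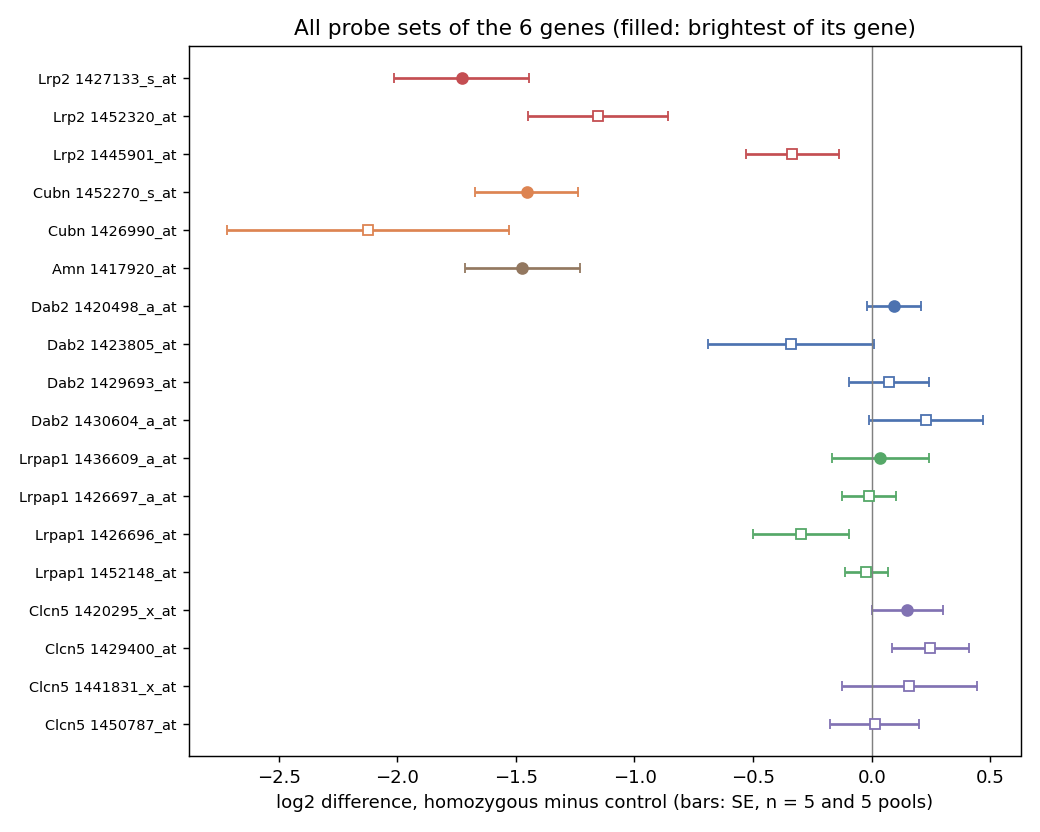
Log2 difference, homozygous minus control (x axis), of all 18 probe sets of the 6 genes (y axis); bars are the SE of the fit over all probe sets, and filled circles mark the brightest probe set of each gene. The probe sets of Lrp2, Cubn and Amn lie between -2.12 and -0.33, and those of Dab2, Lrpap1 and Clcn5 between -0.34 and 0.25.

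The second Lrp2 probe set, 1452320_at, read 137.89, 162.28, 120.73, 205.44 and 351.1 in homozygous pools 1 to 5. In control pools 1 to 5 it read 489.83, 291.63, 502.92, 387.28 and 381.87. Its difference was -1.15 (SE 0.29), and the groups overlapped only because homozygous pool 5 lay above control pool 2. The dimmest Lrp2 probe set, 1445901_at, ran from 27.73 to 69.38 over all arrays and differed by -0.33 (SE 0.19).

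The dimmer Cubn probe set, 1426990_at, read 47.73, 58.12, 30.74, 35.06 and 20.31 in homozygous pools 1 to 5 and 39.53, 118.52, 357.39, 237.87 and 239.93 in control pools 1 to 5. It had the most negative difference of the 18, -2.12, but also the largest error, 0.59. Its groups overlapped only through control pool 1, which lay below homozygous pools 1 and 2.

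The other probe sets of Dab2, Lrpap1 and Clcn5 showed no difference past the threshold. The Dab2 probe set 1423805_at read 538.12 in homozygous pool 5 and 1379.63 to 2045.02 in the other 9 pools. The Lrpap1 probe set 1426696_at read 793.76 in homozygous pool 5 and 1375.3 to 1949.48 elsewhere. In the same pool the brightest probe sets of both genes were at their highest of all 10 arrays, so probe sets of 1 gene moved in opposite directions there. The Lrpap1 probe set 1452148_at had the smallest error of the 18 and ran from 761.52 to 1086.38, with a difference of -0.023 (SE 0.091). The last Lrpap1 probe set, 1426697_a_at, ran from 1303.03 to 1966.02 and differed by -0.012 (SE 0.11).

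Of the remaining Dab2 probe sets, 1429693_at ran from 461.43 to 751.84 with a difference of 0.073 (SE 0.17), and the dim 1430604_a_at from 45.09 to 102.46 with a difference of 0.23 (SE 0.24). For Clcn5, 1429400_at ran from 1565.96 to 2644.32, and 2 dim probe sets, 1441831_x_at and 1450787_at, ran from 90.6 to 195.3 and from 76.87 to 138.33 with differences of 0.16 (SE 0.28) and 0.012 (SE 0.19). The genotypes overlapped in all of these.

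The departures of homozygous pool 5 and control pool 1 fell on the 2 arrays that also differed in the actin control. On each array the 3′ actin control was divided by the control for the middle of the same transcript: this ratio reached 97.7 in homozygous pool 5 and 94.8 in control pool 1, and the other 8 pools had 9.87 to 33.1. These pairs of probe sets were chosen after their values were seen. The log2 difference between the brightest Dab2 probe set and 1423805_at reached 3.22 in homozygous pool 5 and 1.38 in control pool 1, while the rest had 0.78 to 1.18. Between the brightest Lrpap1 probe set and 1426696_at it was 3.70 and 2.74, against 1.69 to 2.22, and between the Cubn probe sets 3.87 and 4.63, against 1.76 to 3.73. The Lrp2 pair, 1427133_s_at minus 1452320_at, went the other way, at -0.75 in homozygous pool 5 and 1.06 in control pool 1, and 1.21 to 1.75 elsewhere. The Cubn pair also differed by genotype, at 2.66 to 3.73 in the other homozygous pools and 1.76 to 2.56 in the other control pools. Homozygous pool 5 was therefore close to homozygous pool 4 for Cubn, at 3.87 and 3.73. Where each probe set lies in its transcript is not used here, and the part of RNA integrity in these values was not tested. Without both arrays the log2 difference was -1.59 for Lrp2, -1.39 for Cubn and -1.32 for Amn, with limma adjusted p of 0.0834, 0.0917 and 0.0971, so that 0 of the 6 genes passed with 4 pools a group. In that fit 23 of all genes passed, against 176 with all pools.

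**Figure D3:**
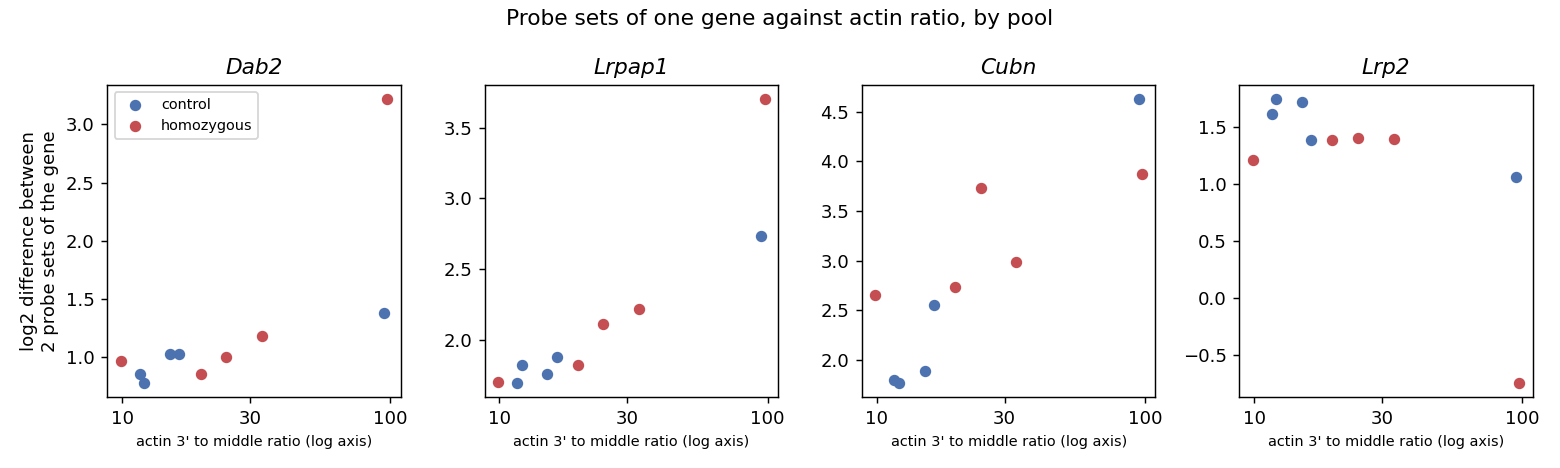
Log2 difference between 2 probe sets of the same gene (y axes) against the actin ratio, 3′ over middle (x axes, log scale); each point is a pool, coloured by genotype. The 2 pools with a ratio of 94.8 and 97.7 lie at the upper end for Dab2, Lrpap1 and Cubn and at the lower end for Lrp2.

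Whether a gene changed more than another was asked directly for all 15 pairs of the 6 genes. For each pair the log2 ratio of the 2 genes was taken in every pool and compared between genotypes by an exact two-sided permutation test, with p-values adjusted over the 15 pairs. The log2 ratio of Lrp2 to Dab2 was lower in homozygous pools by 1.82, that of Lrp2 to Lrpap1 by 1.77 and that of Lrp2 to Clcn5 by 1.88. For Cubn the ratios to the same 3 genes were lower by 1.55, 1.49 and 1.60, and for Amn by 1.57, 1.51 and 1.62. For all 9 pairs the exact permutation p was 0.00794, as small as this design allows, and the adjusted p was 0.0132, with no overlap between the groups. The 9 ratios recombine the same 6 genes, which were chosen with earlier results of these data known. They are therefore not 9 separate results, and their p-values are descriptions. All 9 passed without both arrays of high actin ratio (exact permutation adjusted p = 0.0476 each) and without any single pool. With the most variable probe set of each gene in place of the brightest, 5 of the 15 pairs passed. With the mean of all probe sets the Lrp2 ratios moved to -1.09 against Dab2, -0.998 against Lrpap1 and -1.21 against Clcn5.

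The 6 pairs within the groups did not pass. The difference between Lrp2 and Cubn was -0.28 (exact permutation p = 0.206, adjusted p = 0.31), that between Lrp2 and Amn -0.26 (exact permutation p = 0.317, adjusted p = 0.433) and that between Cubn and Amn 0.019 (exact permutation p = 0.889, adjusted p = 0.889). The order among the 3 receptor genes was therefore not resolved, and it turned with the mean of all probe sets, where Lrp2 differed less than Cubn by 0.72 and less than Amn by 0.40. Dab2, Lrpap1 and Clcn5 differed from each other by -0.11 to 0.056.

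The proximal tubule is the segment in which megalin and cubilin act, so each gene was also set against 28 measured markers of that segment, listed apart from the 6 genes. Of these markers 4 fell and 24 did not pass, against 0.429% of all genes that were lower and passed; 25 had a lower mean in homozygous pools, compared with 46.1% of all genes. Their median log2 difference was -1.11, and the median over all genes was 0. Those that fell were Slc34a1, the sodium phosphate cotransporter of the brush border (-1.17, limma adjusted p = 0.0364), Vil1, which encodes the microvillar protein villin (-1.93, limma adjusted p = 0.0416), Slc27a2, a fatty acid transport protein (-1.14, limma adjusted p = 0.0468), and Pdzk1, a scaffold of apical transporters (-1.36, limma adjusted p = 0.0473). When both arrays of high actin ratio were left out none of the 28 passed, and these 4 differed by -1.18, -1.96, -1.05 and -1.29. The count was also 0 without homozygous pool 1, 3, 4 or 5 or control pool 1, 3, 4 or 5, 4 without homozygous pool 2 and 6 without control pool 2. With all pools, 20 of the 28 markers had an unadjusted limma p under 0.05, against 15.7% of all genes. In 11 of the 28 every homozygous pool lay below every control pool, against 2.10% of all genes.

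The mean log2 level of the 28 markers was 8.26 ± 0.22 (SD, n = 5) in control pools and 7.39 ± 0.23 (SD, n = 5) in homozygous pools, a difference of -0.87. Single markers differed by -1.93 to 0.33, a range that also held Lrp2, Cubn and Amn. Relative to the marker mean, Lrp2 was lower in homozygous pools by a further 0.86, Cubn by 0.59 and Amn by 0.61 (differences of -0.86, -0.59 and -0.61). The exact two-sided permutation p was 0.00794 for Lrp2 and Cubn, which gives 0.00952 adjusted over the 6 genes, and 0.0159 for Amn, which stays 0.0159 adjusted. For Amn the groups overlapped, with control pool 2 among the homozygous pools. Dab2, Lrpap1 and Clcn5 went the other way, at 0.96, 0.90 and 1.02 relative to the markers (exact permutation adjusted p = 0.00952 each). For these 3 genes the result restates that the marker mean was lower while they differed little. Genes and markers were chosen with earlier results of these data known, so the p-values are descriptions. Dim markers may understate a change, so the comparison was repeated with the 13 markers of mean log2 intensity 8 or more, chosen after seeing the data. The mean of these 13 differed by -0.91, beside -0.87 for all 28. Relative to the mean of the 13, the differences were -0.82 for Lrp2, -0.55 for Cubn and -0.56 for Amn. Without both arrays of high actin ratio 5 of the 6 passed, Amn being the exception (exact permutation adjusted p = 0.0571), and with the most variable probe sets 3 passed. The sizes depended on the probe set: relative to the markers, Lrp2 was at -0.30 and Cubn at -1.02 with the mean of all probe sets, and Cubn was at -1.28, Dab2 at 0.51 and Lrpap1 at 0.55, none of which passed, with the most variable one.

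**Figure D4:**
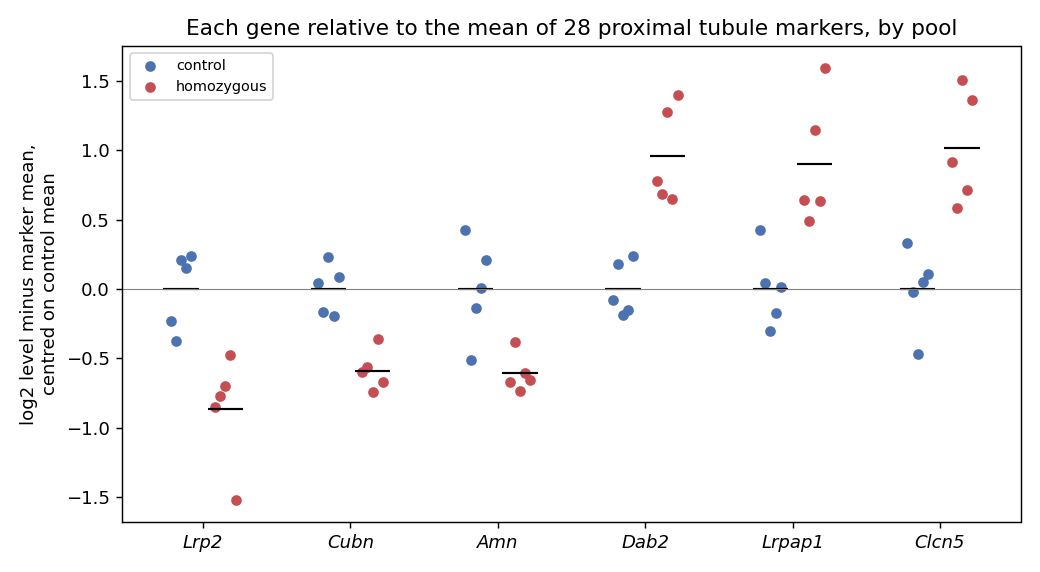
Log2 level of each gene minus the mean of 28 proximal tubule markers in the same pool, centred on the control mean (y axis), for the 6 genes (x axis); points are pools and lines are group means (n = 5). Relative to the markers, homozygous pools lie lower for Lrp2, Cubn and Amn, by 0.86, 0.59 and 0.61 on average, and higher for Dab2, Lrpap1 and Clcn5.

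Among regulators of the segment, 1 of 8 measured genes fell. Hnf4a, the nuclear receptor that drives proximal tubule genes, was lower by 1.51 (SE 0.21; limma adjusted p = 0.0295), and by 1.33 when both arrays of high actin ratio were left out, which did not pass (limma adjusted p = 0.0729). Its size depended on the probe set, at -0.82 with the mean of all probe sets, which did not pass (limma adjusted p = 0.0939), and -2.06 with the most variable one, which did. It did not pass without homozygous pool 1, 3 or 5, without control pool 1, 3, 4 or 5, with the replicate number as a block or in either fit that removed Xist. Rxra, the shared partner of several nuclear receptors, differed by -0.51 (limma adjusted p = 0.437), and the list ran from -1.51 to 0.58 with a median of -0.074.

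In the lists of general endocytic machinery no gene passed with the settings used throughout. Lrp11 passed under 2 of 24 alternatives and B2m, named below, under 3. Of 13 genes listed with the low density lipoprotein receptor family, 1 of which, Sort1, encodes the VPS10-domain receptor sortilin, none passed limma at the adjusted threshold (3 had an unadjusted p under 0.05, as did 15.7% of all genes), and their median difference was -0.0006. Lrp11 and Lrp8, the reelin receptor ApoER2, had the smallest p of the family and were higher, at 1.66 (limma adjusted p = 0.109) and 0.45 (limma adjusted p = 0.202). Lrp1, the broadly made relative of megalin, differed by 0.022 and Vldlr by 0.026. Of 17 genes of the clathrin coat and its adaptors none passed (2 at an unadjusted p under 0.05), with a median of -0.046. In this list Myo6, the minus-end directed myosin that moves endocytic vesicles from the microvillus base, was lower in every homozygous pool than in every control pool but did not pass (-0.91, SE 0.20; limma adjusted p = 0.0707). It passed under 4 of 24 alternatives, at adjusted p of 0.0192 with array weights in limma, 0.0462 with arrays at 1 median, 0.0398 without the dimmest 40% of genes and 0.0474 with 16 added. Eps15, a coated pit scaffold, differed by 0.20 (limma adjusted p = 0.288).

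None of 21 genes of endosome recycling and lysosomal delivery passed (1 at an unadjusted p under 0.05), with a median of 0.11. The Rab11 effector gene Rab11fip3 differed by -0.49 (limma adjusted p = 0.3) and the lysosomal membrane protein gene Scarb2 by 0.31 (limma adjusted p = 0.372). Ocrl, the phosphoinositide phosphatase whose loss, like that of Clcn5, impairs uptake by the proximal tubule, differed by 0.033. Of 16 genes of the CLC family and the proton pump none passed (4 at an unadjusted p under 0.05), with a median of 0.0008. The smallest p-values there belonged to pump subunits of acid-secreting cells: Atp6v0d2 differed by -0.79 (limma adjusted p = 0.142) and Atp6v1b1 by -1.40 (limma adjusted p = 0.164), which was at the floor in at least 1 homozygous pool. Among 17 genes of proteins that the receptors carry none passed (1 at an unadjusted p under 0.05). B2m, the light chain of class I molecules and a filtered ligand, had the smallest p (0.36, limma adjusted p = 0.0991), followed by Lpl, lipoprotein lipase (0.38, limma adjusted p = 0.327).

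**Figure D5:**
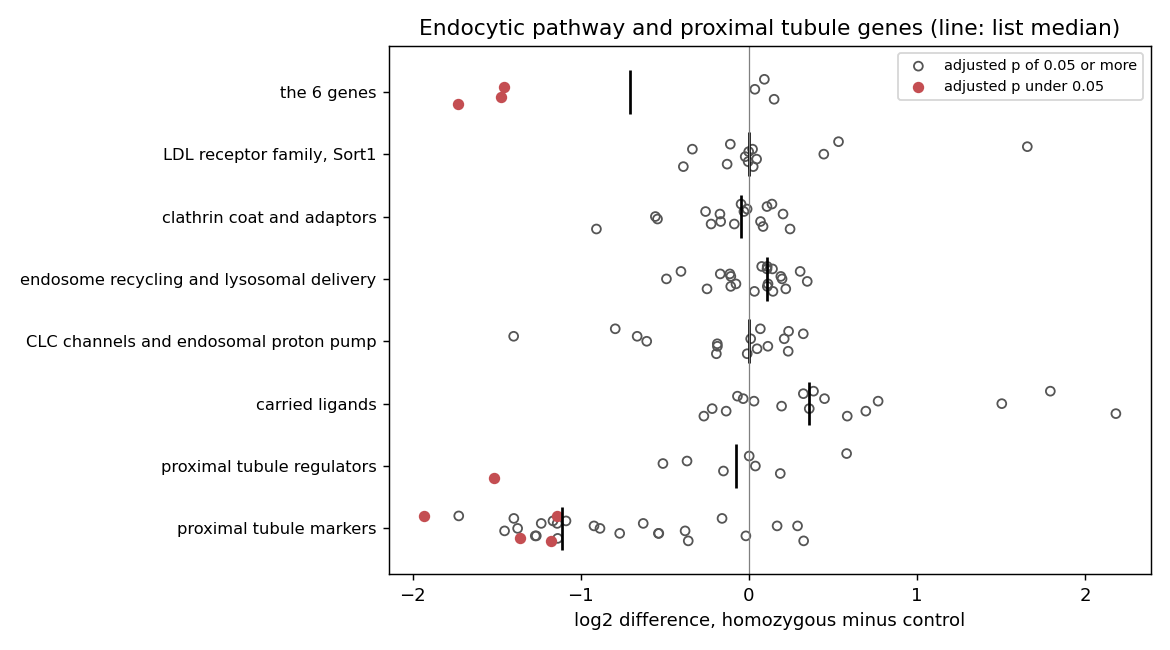
Log2 difference, homozygous minus control (x axis), of each measured gene in the lists named on the y axis; filled points passed at an adjusted p under 0.05 and the vertical line is the list median. The medians lie between -0.074 and 0.36 for all lists but the 6 genes themselves and the proximal tubule markers, whose median is -1.11.

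Genes with the profile closest to Lrp2 and to Dab2 over the 10 arrays were then listed. Likeness was measured as the root mean square difference of log2 levels, each centred on its mean over the control arrays. The closest were Slc7a13 (0.22), an amino acid transporter, Mep1b (0.22), a brush border protease subunit, Keg1 (0.27), which is among the 28 markers, Cubn (0.33) and the cytochrome P450 gene Cyp4a31 (0.34). Cubn had rank 4 and Amn rank 10 (0.40) of all genes. For Dab2, which differed little between arrays, the closest were Nfu1 (0.069), Tbl1xr1 (0.073), Cep57l1 (0.080), Tmem176b (0.085) and Gk5 (0.085). Clcn5 and Lrpap1 were at 0.21 and 0.21 from Dab2, ranked 3061 and 3164 of all genes. The genotype difference is part of these distances, so they are descriptions.

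The tissue held other cell types whose marker levels moved with genotype. The summed intensity of 6 loop and distal tubule markers was 2164 to 4568 in homozygous pools and 4754 to 11583 in control pools, and that of 7 ureteric bud and collecting duct markers 3115 to 5730 against 6586 to 11120. Such sums weigh the brightest gene most, which was Slc12a1 in the first list and Calb1 in the second (control mean log2 12.38 and 12.40). All 6 loop and distal tubule markers and 5 of the 7 ureteric bud and collecting duct markers had a lower mean in homozygous pools, and none passed. Their median log2 differences were -1.20 and -0.63, beside -1.11 for the proximal tubule markers. An unadjusted limma p under 0.05 was found for 5 of the 6 and 4 of the 7, against 15.7% of all genes. In 2 markers of each list every homozygous pool lay below every control pool, against 2.10% of all genes. The sums of the 4 measured podocyte markers overlapped, at 1695 to 3973 against 2930 to 5855, as did those of the 6 nephron progenitor markers. All 4 of the former and 5 of the latter had a lower mean in homozygous pools, and none passed. In the other direction, 8 macrophage markers summed to 4253 to 5187 against 2671 to 3649; 6 had a higher mean, of which Adgre1 and Csf1r rose, Cd68 had a lower one, and C1qa was at the floor on every array. The 6 sympathetic neuron and chromaffin markers summed to 5486 to 16661 against 684 to 2219, with all 6 higher and Npy and Slc6a2 past the threshold. The summed intensities of adrenal cortex, smooth muscle, urothelium, testis, renal stroma and endothelium markers overlapped between the genotypes. All 6 adrenal cortex and all 5 smooth muscle markers had a higher mean in homozygous pools, with median log2 differences of 1.41 and 1.85. The mean was also higher for 4 of 5 urothelium, 4 of 5 testis, 3 of 5 stroma and 2 of 6 endothelium markers. None of these markers passed. Of the 5 yolk sac markers, Hnf4a, which is also in the list of tubule regulators, fell, and Apoa4 was at the floor on every array. Afp, Apob and Ttr differed by 0.031, 0.32 and 0.45 and did not pass. Macrophages are a known source of Dab2, and the part of these tissue shares in the values of the 6 genes was not tested.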

How the data were processed

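The values are linear intensities per probe set that the authors deposited, 1 column per array. With 2% trimmed from each end, the mean intensity was 500.003 on all 10 arrays, as global scaling leaves it, so a change of total RNA is not measured. How probes were summarized and background was handled is not given in the sources used here. No arrays held identical values, median intensity ran from 74.7 to 98.6, and precision is limited by the number of arrays. The share of probe sets at or below 16 was 19.9% to 21.1% in homozygous pools and 22.2% to 23.0% in control pools. These ranges did not overlap, and the cause was not tested. Per the labels, the pools are distinct, and p-values reflect variation from pool to pool.

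For this work, 64 Affymetrix controls of 45101 probe sets were left out of tests. Names came from the platform annotation, where 34945 probe sets had 1 symbol, 932 several and 9160 none here. Intensities under 16 were set to 16 and log2 was taken. Each of 18193 genes was represented by its brightest probe set over all arrays. The genotype difference was fitted in limma 3.58.1 under R 4.3.3 (lmFit, eBayes with an intensity trend, two-sided, Benjamini-Hochberg over all genes), tested on simulated data; a further fit covered all 45037 probe sets. Ratios between genes were compared by exact permutation tests. Groups come from the sample titles and genotype labels. Replicate numbers were not treated as pairs: the labels name no shared animal or batch.

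The 6 genes and the lists (7 of pathway and tubule genes, 13 of cell type markers; 194 of 210 entries measured) were chosen with earlier results of these data known. The text names every probe set of the 6 genes, and from each pathway list every gene that passed, and at least the 2 of smallest p; Lrp1, Vldlr and Ocrl were named after their values were seen. For Lrp2 and Dab2 the 5 closest genes are named. There were 24 alternatives on probe set choice, dim genes, normalization, floor, variance model, pairing, Xist, actin ratio, title ending and each pool left out. An alternative with bright markers only, and the recount of proximal tubule markers without pools, were added after seeing the data.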

Additional observations from a re-analysis of the deposited data

Results flagged for a closer look

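Of 36 groups of 5 values (18 probe sets in each genotype), 3 held a value set apart from the other 4 by more than Dixon's 95% critical value, where chance gives about 1.8. The dimmest Lrp2 probe set, 1445901_at, read 27.73 in homozygous pool 1 and 42.98 to 47.96 in the other homozygous pools. The Dab2 probe set 1423805_at read 538.12 in homozygous pool 5 and 1603.13 to 2026.49 in the others of that genotype. The Lrpap1 probe set 1426696_at read 793.76 in the same pool and 1392.89 to 1637.46 in the others. Homozygous pool 5 is 1 of the 2 pools with a high actin ratio, and the part of RNA integrity in these values was not tested.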

How the results depend on the processing

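Lrp2, Cubn and Amn kept their negative sign under all 24 alternatives, and 13, 10 and 9 of these left them past the threshold. Leaving out each pool in turn gave -1.89 to -1.55 for Lrp2, -1.58 to -1.32 for Cubn, -1.65 to -1.35 for Amn, -0.0017 to 0.17 for Dab2 and -0.12 to 0.16 for Lrpap1. In these fits 0 to 3 of the 6 genes passed, depending on the pool left out. The replicate number as a block left the differences at -1.73, -1.45 and -1.47, but 0 genes of the 6 passed and 1 of all genes. Deviations of same-numbered pools correlated at -0.55 to -0.17, and 0 of 5 homozygous pools correlated best with its own number. These values gave no sign of pairing by number, but 5 correlations cannot exclude a shared batch or litter. Without the arrays of high actin ratio the values were -1.59, -1.39 and -1.32 (0 of 6 passed), without the pools of high Xist -1.64, -1.41 and -1.35 (0 passed), and with the Xist level as a covariate -1.61, -1.42 and -1.35 (0 passed); these fits hold fewer samples or more terms. On arrays whose title does not end in CHP the homozygous group is pool 5 alone, and Lrp2, the 1 gene past the threshold there, rests on a spread assumed from the controls; Cubn was at -1.61 and Amn at -1.59. Cubn was no longer past the threshold with the mean of all probe sets (-1.79) or the most variable one (-2.12), and Amn with arrays at 1 median (-1.52) or a floor of 64 (-1.47); the cause was not tested.

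Signs that turned belong to genes or pairs that never passed. Without the pools of high Xist and with Xist as a covariate Clcn5 was at -0.077 and -0.10, Dab2 at -0.094 and -0.13 and Lrpap1 at -0.26 and -0.31. With the most variable probe set Dab2 was at -0.34, Lrpap1 at -0.30, Lpl at -0.076 and Lrp8 at -0.024, 5 pairs of genes and 3 genes against the tubule markers passed, and the pairs Cubn with Amn, Dab2 with Lrpap1 and Lrp2 with Cubn were at -0.65, -0.042 and 0.39. Lrpap1 was at -0.074 with the mean of all probe sets, -0.023 under quantile normalization and -0.014 with arrays at 1 median, and Dab2 at -0.0049 without the arrays of high actin ratio. The mean of all probe sets gave -0.32 for Cubn with Amn, 0.40 for Lrp2 with Amn and 0.72 for Lrp2 with Cubn. Cubn with Amn was at -0.0046 with 16 added in place of the floor and -0.067 without the arrays of high actin ratio, and Dab2 with Lrpap1 at -0.0067 there. Leaving out each pool gave -0.077 to 0.11 for Cubn with Amn, -0.16 to 0.013 for Dab2 with Clcn5 and -0.070 to 0.12 for Dab2 with Lrpap1. Over all genes 176 passed; the count was 951 with array weights, 1192 on arrays whose title does not end in CHP, 299 with 16 added, 283 without the dimmest 40% of genes, 109 with the mean of all probe sets, 93 with the most variable one, 90 with a floor of 64, 78 with arrays at 1 median, 28 without the pools of high Xist, 23 without the arrays of high actin ratio, 13 with Xist as a covariate and 3 to 414 with a pool left out. Over all alternatives the limma adjusted p ran from 0.0164 to 0.364 for Lrp2, 0.0149 to 0.349 for Cubn and 0.0147 to 0.376 for Amn.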

Other observations

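The middle and 3′ probe sets of Gapdh did not single out the same 2 arrays as those of actin. The ratio was 68.7 in control pool 1, the highest of all, and 43.4 in homozygous pool 5, inside the range of 22.1 to 50.5 in the other 8 pools.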
